A study of Mus musculus with 2 samples.

Results

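Interleukins and their receptors form the signalling network through which regulatory T (Treg) cells sense inflammation and act on other leukocytes. The genes described here are those that the array design names as interleukins, interleukin receptors or close relatives, with interferon gamma (Ifng), GM-CSF (Csf2), Lif and Osm added. The cytokines that signal through the common gamma chain, the main Th2 cytokines, Il10 and Il12a were left out by name, as were Il2ra, Il2rb, Il2rg, Il7r and Il21r. This gave 72 genes of the 30175 gene names on the array. The rule used names and no measured value, but it was set with earlier results of these data known. By role they were 33 cytokines, 33 receptor chains and 6 genes in a last group, which holds decoy receptors, antagonists and the enzyme Il4i1. The alpha chains Il4ra, Il9r and Il15ra, which pair with the common gamma chain, stayed in by the rule.

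RNA of sorted mouse Treg cells was hybridised to 2 single-colour Agilent arrays. The array labelled Nr4a-deficient carried RNA from Nr4a-TKO mice and the other carried RNA from wild-type mice, both from animals 5 weeks of age. Which alleles were deleted, with which driver, and how many animals were pooled is not stated in the labels. With 1 array per genotype there is no replicate check, no test and no p-value, so every value describes these 2 libraries and the number of arrays limits the precision.

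Interleukins are secreted messengers, and most act through receptors built from a ligand-binding chain and a shared signalling chain. The interleukin-1 family signals through Toll/interleukin-1 receptor (TIR) domains and Myd88 to NF-kappaB. The interleukin-6, interleukin-12 and interleukin-10 families act through Janus kinases and STAT factors, and the interleukin-17 family acts through the adaptor Act1 (Traf3ip2). In Treg cells the interleukin-33 receptor ST2 (Il1rl1) is known as a mark of tissue and effector cells, and the interleukin-18 receptor is also known on effector Treg cells.

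Values are the processed signal of the scanner software in intensity units. Each array was scaled to its own 75th percentile, and a difference is the log2 value on the array labelled Nr4a-deficient less that in wild-type. Genes were called higher or lower from 2-fold upwards. A gene stands by its brightest probe above background. Where a probe was well above background on 1 array only, the difference is a bound, written "at least", against the lowest signal that carried that call on the dimmer array. That signal was 51.1 on the array labelled Nr4a-deficient and 73.8 on the wild-type one. The spike-in RNAs of known amount lay 0.37 ± 0.058 higher on the log2 scale (SD, n = 8 spike-ins) on the first array after scaling. Any difference between 0 and 0.37 therefore changes sign when the spike-ins set the scale, and such differences are given below as values without a direction. From repeated spots, the SD of a spot-to-spot log2 difference was 0.044 for bright, 0.080 for middling and 0.47 for dim probes, the dim ones being those below -3 on the scaled log2 axis. That spread covers spot noise only, not animals, sorts or RNA preparations.

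The probes against the Nr4a genes did not follow the label where they gave a signal. Nr4a1 read 80407 intensity units on the array labelled Nr4a-deficient and 51441 on the wild-type array, Nr4a2 read 3134 and 1850, and for Nr4a3 neither array gave a signal well above background. Whether these probes lie in deleted sequence was not given in the sources used here, so each direction rests on the label. Of 8 Treg and T cell markers all were above background on both arrays, with differences from -0.86 to 0.32. The lowest was Tnfrsf18, the Treg receptor GITR, at 32729 against 69169 intensity units, which is -1.24 on the spike-in scale. The Foxp3 probe was dim (74.5 and 85.4 intensity units). In bulk RNA of a sorted population, fewer cells of a type and less RNA per cell cannot be told apart.

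The results turn on a few probes, and the first 30 of the 60 bases of each are shown in the order of the array file, 5′ to 3′ and with nothing in capitals, so that the transcript each one reads can be looked up. Il1rl1 is read by 1 probe designed on the transcript of the soluble receptor (NM_010743) and by 2 designed on that of the membrane receptor (NM_001025602). The Il18r1 probes sit in the next gene along the chromosome. The mm9 coordinates come from the array design, without an exon or untranslated-region label because no annotation of that build was used.

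Il1rl1 soluble, chr1:40504769-40504828: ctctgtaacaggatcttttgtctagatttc
Il1rl1 membrane, chr1:40520014-40520073: ccttacccaaattgccattacagtcgagca
Il1rl1 membrane, chr1:40522187-40522246: gccattgactccttgtgtgttttcttcatg
Il18r1, chr1:40537851-40537910: gtccaccataatgggacacggtacaacatc
Il18r1, chr1:40557541-40557600: tgtcacaacagctgtgtgtgaaaacctagc
Il1b, chr2:129190347-129190406: aggttcctataatatggatgagaattttta
Il17c, chr8:124947254-124947313: aatgcttgtgtcgtggatgcatcaacgcca
Il17rb, chr14:30809354-30809413: taatgaataatccgtttgggaggctctcac

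Of the 72 genes, 45 were well above background on at least 1 array, 34 of them on both. Among the 45, 7 were higher and 4 lower past the 2-fold mark by measured value or bound, which is 15.6% and 8.89%. On the spike-in scale the counts were 5 higher and 6 lower. The same shares over all 18556 genes above background on at least 1 array were 4.7% and 4.94%. With both arrays above background, 2 of 34 members were higher and 4 lower, where the background was 2.65% and 3.06% of 16310 genes. Most of the higher members therefore rested on bounds, and 10 of the 11 members seen on 1 array only were seen on the array labelled Nr4a-deficient. A gene that passed the filter only through the array where it was bright had to differ, and the limit for a dim gene was lower on that array. Over the whole array, 1599 genes were above background only there and 647 only in the wild-type library.

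**Figure D1:**
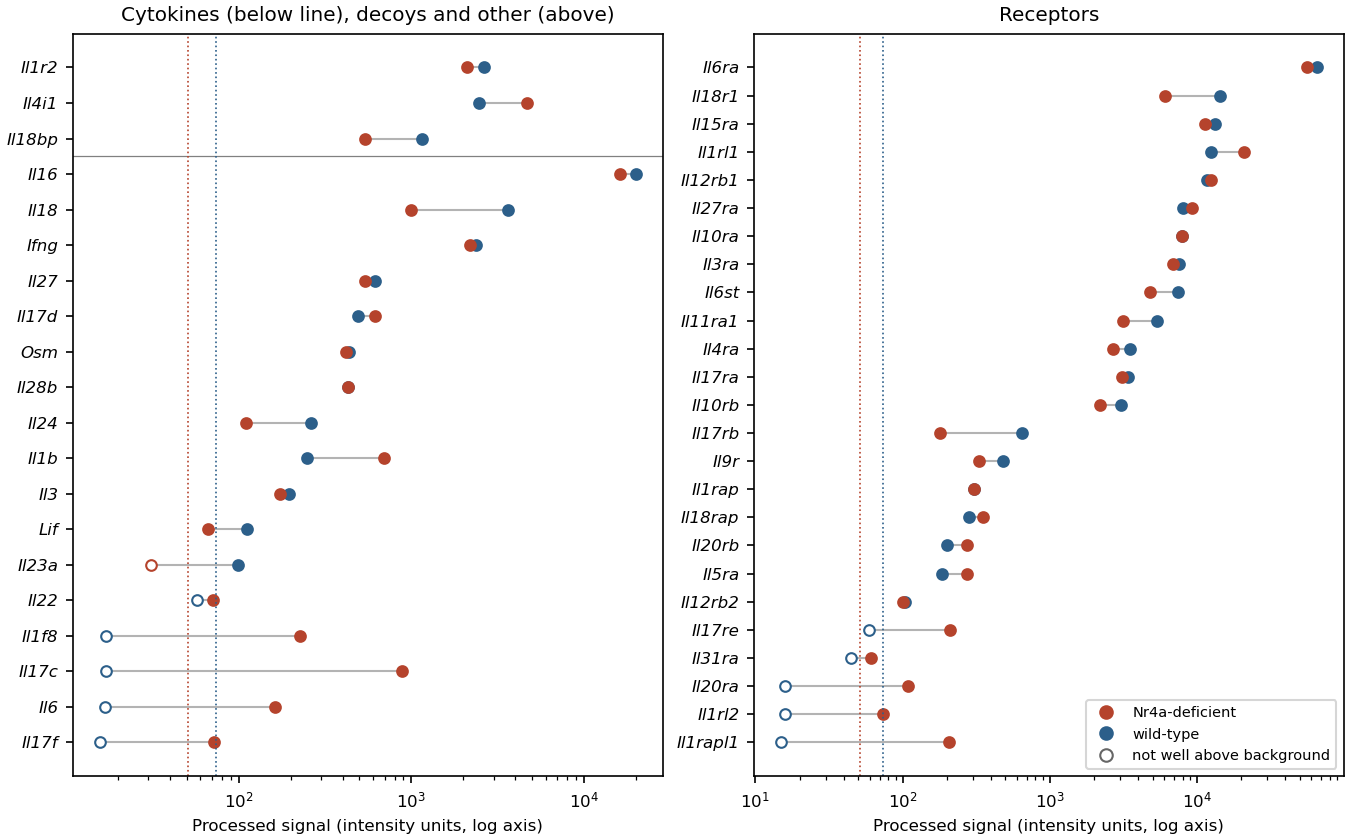
Processed signal in intensity units (log axis) of each member above background on at least 1 array, with cytokines, decoys and other genes on the left and receptors on the right. Red points are the array labelled Nr4a-deficient, blue points the wild-type array, open points were not well above background, and the dotted lines mark the lowest signal called above background on each array (51.1 and 73.8); signals of different genes come from different probes and cannot be ranked against each other.

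Among the cytokines, Il1b and Il17c stood higher and Il18 and Il24 lower on the array labelled Nr4a-deficient, while Ifng, Il16, Il27, Osm and Il3 lay close to their wild-type values. Of the 33 cytokine genes, 17 were above background on at least 1 array. Of these, 4 were higher (23.5%) and 2 lower (11.8%), beside 4.7% and 4.94% of all genes so detected. Among the higher ones Il17c, Il1f8 and Il6 rested on bounds. With both arrays above background, 1 of 11 was higher (Il1b) and 2 were lower (Il18 and Il24). The median difference of the 11 measured on both arrays was 0.038, where that of all genes so measured was -0.014. That small value turned negative with the spike-ins as the scale.

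Il1b encodes interleukin-1 beta, an inflammatory cytokine made mainly by myeloid cells. It was printed in repeated spots, whose signals ran from 632 to 793 over 10 spots of the array labelled Nr4a-deficient and from 228 to 268 over 9 spots of the wild-type array. The spots of the arrays did not overlap, and the difference was 1.70, or 3.24-fold higher. On the spike-in scale it was 1.32.

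Il18, a relative of interleukin-1 that drives interferon gamma production together with interleukin-12, went the other way. Its probe (chr9:50389761-50389820) read 1001 intensity units on the array labelled Nr4a-deficient against 3618 on the wild-type array. The difference was -1.64, or 3.11-fold lower, and each of the 10 alternatives kept it past 2-fold, between -2.01 and -1.59. Macrophage and monocyte markers stood lower on the same array. Of the 7 genes of that list on the array, 5 were at least 2-fold lower (C1qa, C1qb, C1qc, Cd14 and Mertk) and Lyz2 was higher, and their summed signal, in units of the array's 75th percentile, was 19.2 against 41.9 in wild-type. Erythroid and platelet markers had 4 of 5 detected genes lower (12.3 against 44.5). Conventional dendritic cell markers had 4 of 7 detected genes higher and none lower, with a summed signal of 6.03 against 1.02, while Xcr1 was at background. Of the plasmacytoid dendritic cell markers, 6 of 8 were higher and none lower. The 6 were Cox6a2 (113.9-fold), Upb1 (49.9-fold), Klk1 (at least 27.8-fold), Tcf4 (7.58-fold), Ly6d (2.69-fold) and Ccr9 (2.35-fold). Bst2 lay at 0.53, and Siglech, by far the brightest, at 0.10 (136839 against 147869 intensity units). The summed signal of the list (103.4 against 81.4, 1.27-fold) is mostly that of Siglech and does not describe the other markers. Over all genes above background on at least 1 array, 4.7% were higher and 4.94% lower. The granulocyte, mast cell and basophil list had 1 of 4 detected genes higher (Cxcr2). The NK and innate lymphoid list had 1 of 6 higher (Klrd1), and the stromal, endothelial and epithelial list 1 of 6 (Cdh5). Each rested on a bound, and none of these lists had a gene lower past 2-fold. The part of any of these cells in the Il18, Il1b or other differences was not tested.

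**Figure D2:**
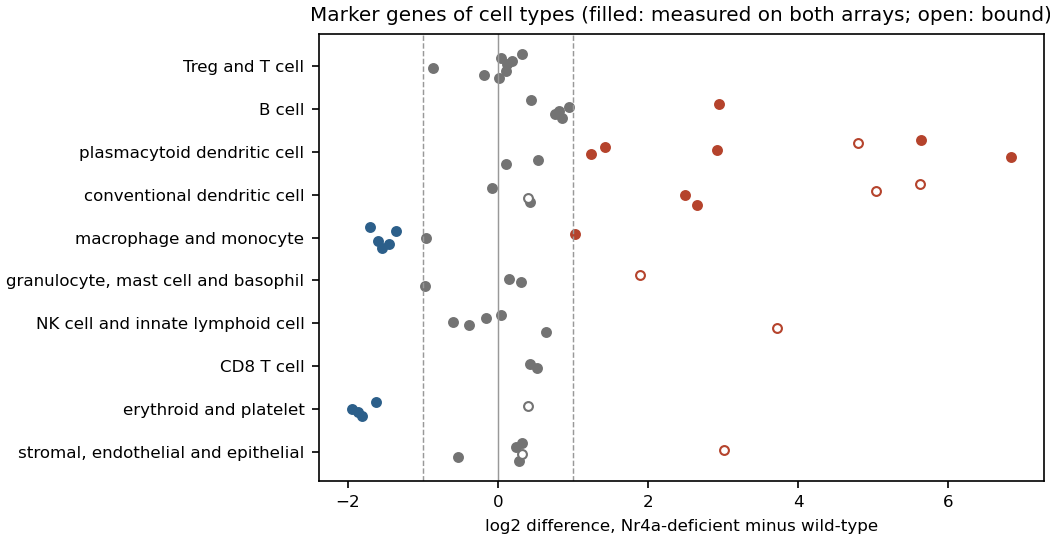
Log2 difference (Nr4a-deficient minus wild-type, x axis) of marker genes of each cell type (rows); filled points were measured on both arrays, open points are bounds, and red and blue mark genes past 2-fold. Most dendritic cell markers lay to the right, the macrophage markers C1qa, C1qb, C1qc, Cd14 and Mertk to the left, and Treg and T cell markers between -0.86 (Tnfrsf18) and 0.32.

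The remaining interleukin-1 relatives were dim. Il1f8, the gene of interleukin-36 beta, read 227 intensity units on the array labelled Nr4a-deficient and 17.2 on the wild-type array, where it was not well above background. It was at least 3.58-fold higher by bound. On neither array were Il1a, Il1f5, Il1f6, Il1f9, Il1f10 and Il33 well above background, so the ligand of ST2 itself gave no fold.

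Il17c was the member with the highest bound. This cytokine of the interleukin-17 family is known from epithelial cells and acts through a receptor of Il17ra and Il17re. Its only probe read 880 intensity units on the array labelled Nr4a-deficient and 17.1 on the wild-type array, at least 13.8-fold higher. Il17re was also above background only on the first array, at 210.7 against 58.9 intensity units, at least 3.32-fold higher. Il17f read 71.9 against 15.7, a bound of only 1.13-fold because the first value was itself close to background. Il17d lay at 0.53, and on neither array were Il17a, Il17b and Il25 well above background. Of 2 epithelial markers, Krt8 was at background and Epcam lay at 0.33.

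Il6, an inflammatory cytokine that opposes Treg differentiation, read 161.5 intensity units on the array labelled Nr4a-deficient and 16.8, below background, on the wild-type array. The bound was 2.54-fold higher, and on the spike-in scale it fell just short of 2-fold, at 0.97. Among its relatives that signal through gp130, Osm lay at 0.17 and Lif at -0.53 (66.8 against 111.9 intensity units, a dim probe with a spot-noise SD of 0.47). Il27, a cytokine of antigen-presenting cells, lay at 0.023. The probes of Il11 and Il31 were not well above background on either array.

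Il24 of the interleukin-10 family read 109.8 intensity units on the array labelled Nr4a-deficient and 264 on the wild-type array, a difference of -1.05 (2.07-fold lower). That probe was dim, with a spot-noise SD of 0.47. The difference rested on 1 of 2 probes, the other being below background, and shrank to -0.62 with another background correction (normexp). Il22, a cytokine that acts on epithelia, read 71.5 and 57.5 intensity units, with a bound of 1.12-fold. Il28b, renamed Ifnl3 and near-identical to Ifnl2, lay at 0.22, and a probe may not tell these paralogs apart. Il19 and Il20, which neighbour Il24, were at background.

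The defining cytokine of Th1 cells, Ifng, read 2189 and 2374 intensity units and lay at 0.10, or -0.27 on the spike-in scale. Il16, a chemoattractant for CD4 cells, lay at -0.092. Il3, a growth factor of myeloid precursors, lay at 0.038 (172.7 and 195.3 intensity units, a dim probe with a spot-noise SD of 0.47). Il23a, the p19 chain of interleukin-23, was the one member above background in the wild-type library alone, at 98.9 against 31.0 intensity units, a bound of 1.67-fold lower. Its partner chain Il12b, Csf2 and the macrophage growth factor Il34 were not well above background on either array. Repeated spots of the Csf2 probe ran from 10.5 to 45.3 on the array labelled Nr4a-deficient and from 15.1 to 78.9 on the wild-type array, so they overlapped widely.

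**Figure D3:**
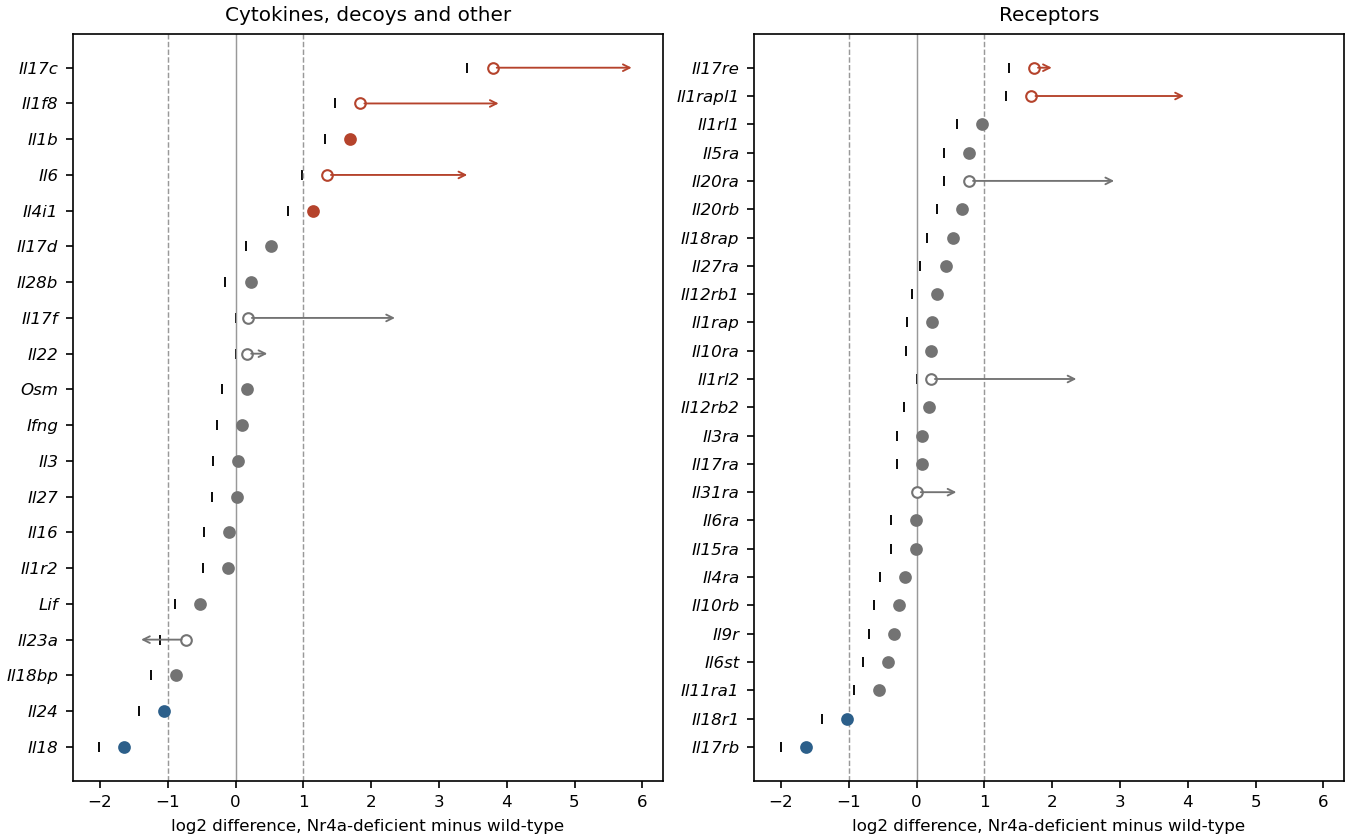
Log2 difference (Nr4a-deficient minus wild-type, x axis) of each member above background on at least 1 array; filled points were measured on both arrays, open points are bounds with an arrow to the measured value, and short black bars give the value with the spike-ins as the scale. Red and blue mark genes past 2-fold (dashed lines), from Il18 at -1.64 to Il17c at a bound of 3.79.

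The decoys and other genes split. Il18bp, the secreted protein that neutralises interleukin-18, read 540 intensity units on the array labelled Nr4a-deficient and 1157 on the wild-type array. Its difference was -0.88 (1.84-fold), which is -1.25 on the spike-in scale. Il4i1, an amino acid oxidase of activated lymphoid and dendritic cells that restrains T cells, read 4675 against 2457 intensity units. It was 2.21-fold higher (1.14), or 0.77 on the spike-in scale, which is under 2-fold. Il1r2, the decoy receptor for interleukin-1 and a known gene of activated Treg cells, lay at -0.11 (2096 and 2633 intensity units). On neither array were Il1rn, Il13ra2 and Il22ra2 well above background.

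Il17rb and Il18r1 stood lower among the receptor chains, and most other chains lay within 2-fold. Of 33 receptor genes, 25 were above background on at least 1 array. Of these, 2 were higher and 2 lower (8.0% each), beside 4.7% and 4.94% of all genes so detected. The higher ones, Il17re and Il1rapl1, rested on bounds, and the lower ones, Il17rb and Il18r1, were measured on both arrays. The median difference of the 20 receptors measured on both arrays was 0.08. The median over all 25, with bounds, was 0.18, which became -0.15 on the spike-in scale.

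**Figure D4:**
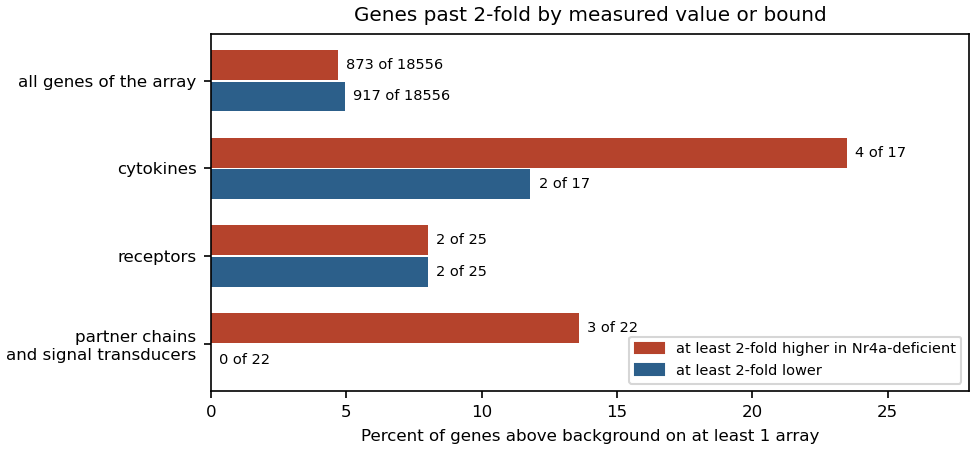
Percent of genes above background on at least 1 array (x axis) that were at least 2-fold higher (red) or lower (blue) on the array labelled Nr4a-deficient, by measured value or bound, with the counts beside each bar. Among cytokines 4 of 17 were higher and 2 lower, and among receptors 2 of 25 were higher and 2 lower, beside 4.7% and 4.94% of all genes.

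Opposite differences lay side by side in the interleukin-1 receptor cluster, where Il1r2, Il1r1, Il1rl2, Il1rl1, Il18r1 and Il18rap are 6 protein-coding neighbours in a row on chromosome 1. Il1rl1, the interleukin-33 receptor ST2, was higher at each of its 3 probes. The probe for the soluble form read 986 intensity units on the array labelled Nr4a-deficient and 512 on the wild-type array, a difference of 1.16. The probes for the membrane form read 590 against 305.8 (1.17 on the log2 scale) and 20985 against 12467 (0.97). The brightest probe thus fell just under 2-fold, at 1.96-fold, and the mean of the probes was 1.10. Both forms differed by a like amount, and the values on the spike-in scale were 0.79, 0.79 and 0.60.

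Il18r1, the ligand-binding chain of the interleukin-18 receptor and the next gene in the row, was lower at both of its probes. The brighter read 6050 intensity units on the array labelled Nr4a-deficient and 14276 on the wild-type array, and the dimmer 281 against 653. The differences were -1.02 (2.03-fold lower) and -1.0. With quantile normalization the brighter probe lay at -0.98, just inside 2-fold. The signalling partner Il18rap did not follow, at 0.53 (350 against 281.8 intensity units). The ligand Il18 (-1.64) and its decoy Il18bp (-0.88) are given above.

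The other genes of the cluster gave little signal or little difference. Il1r2 lay at -0.11. The probe of Il1r1, the signalling receptor of interleukin-1, read 64.0 and 64.6 intensity units, not well above background. Il1rl2, the interleukin-36 receptor, read 73.4 against 15.96 intensity units, a bound of 1.16-fold. Elsewhere in the genome, the shared accessory chain Il1rap read 308 and 304.6 intensity units and lay at 0.23. Il1rapl1, a synaptic relative, read 205 against 14.9 intensity units at 1 of 3 probes, at least 3.23-fold higher, while its other probes were at background on both arrays. Il1rapl2 was at background.

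**Figure D5:**
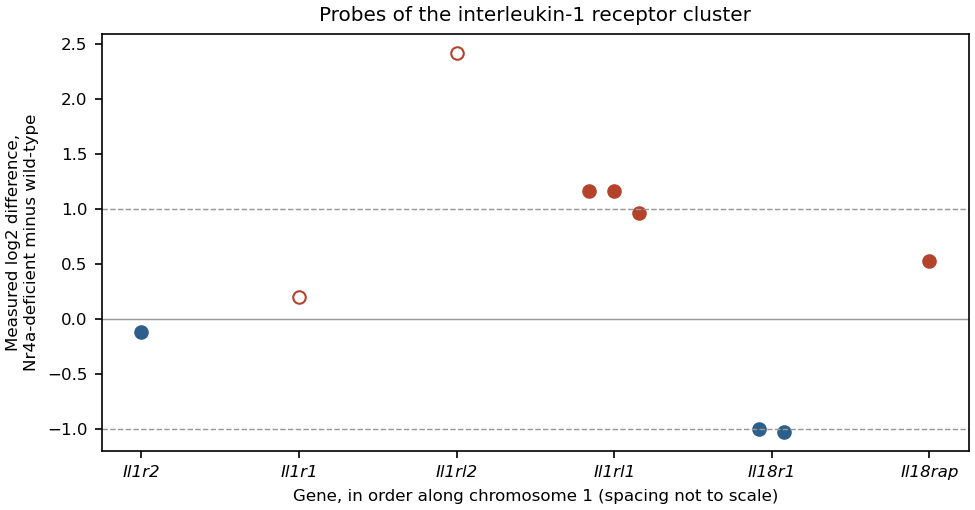
Measured log2 difference (Nr4a-deficient minus wild-type, y axis) of every probe of the 6 genes of the interleukin-1 receptor cluster, in their order along chromosome 1, red above 0 and blue below; open points were not well above background on both arrays. The 3 probes of Il1rl1 lay between 0.97 and 1.17 and the 2 of Il18r1 at -1.0 and -1.02.

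Il17rb, the chain that binds interleukin-25, was the receptor with the lowest difference. It read 179 intensity units on the array labelled Nr4a-deficient and 647 on the wild-type array, -1.63 or 3.1-fold lower, and stayed past 2-fold under each of the 10 alternatives (-2.01 to -1.29). Its second probe was at background on both arrays. The shared chain Il17ra lay at 0.075, with 3095 and 3412 intensity units. Il17rc and Il17rd were not well above background on either array.

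Receptor chains of the gp130 and interleukin-12 families measured on both arrays lay within 2-fold. Il6ra, the interleukin-6 receptor, read 55936 and 65466 intensity units and lay at -0.011. The shared transducer gp130 (Il6st) read 4828 and 7482. It lay at -0.42 and Il11ra1 at -0.55, or -0.79 and -0.92 on the spike-in scale. The Il11ra1 probe may also read the near-identical Il11ra2. Il27ra lay at 0.43, and Il31ra was at the edge of background (60.6 and 44.9 intensity units). Il12rb1 lay at 0.30 and 0.50 at its probes. Il12rb2, the Th1-linked chain, lay at 0.18 (101.4 and 104.1 intensity units, a dim probe with a spot-noise SD of 0.47). Il23r was at background.

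Among the interleukin-10 family chains and those of the gamma-chain and beta-chain cytokines, every member measured on both arrays lay under 2-fold. Il10ra read 7917 and 7910 intensity units, a difference of 0.22, and Il10rb, which several cytokines of the family share, lay at -0.26. Il20rb, a receptor chain for the Il24 protein, read 275 against 200.5 intensity units and lay at 0.67. That probe was dim (spot-noise SD 0.47), and the second probe of Il20rb was at background. Its partner Il20ra read 108.4 against 16.02, above background on the first array only, so that its 1.71-fold is a lower bound and the measured values lay 7.86-fold apart after scaling. Il22ra1 and Il28ra (renamed Ifnlr1) were at background. Il4ra lay at -0.17, Il9r at -0.33 and Il15ra at -0.011, while Il13ra1 was at background. Il3ra lay at 0.086, and Il5ra, known from eosinophils and B-1 cells, at 0.77 (273 against 185.8 intensity units, also a dim probe). B cell markers had 1 of 6 detected genes at least 2-fold higher (Fcrla), beside 4.7% of all genes above background on at least 1 array. All 6 lay above 0, from 0.44 (Cd22) to 2.94 (Fcrla), or from 0.069 to 2.57 on the spike-in scale. Their summed signal was 13.8 against 7.38, while Pax5 and Blk were at background. The part of B cells in the Il5ra value was not tested.

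Lifr, Csf2rb and Csf2rb2, chains that pair with these members, stood higher on the array labelled Nr4a-deficient. Of 23 partner chains and transducers, 22 were above background on at least 1 array, with 3 higher (13.6%) and none lower past 2-fold. Over all genes so detected, 4.7% were higher and 4.94% lower. Of the 21 partner genes measured on both arrays, 2 were higher. The median of these 21 was 0.12, a value small enough to turn negative on the spike-in scale. Ebi3 then passed 2-fold lower, at -1.09. Lifr, which binds the Lif protein together with gp130, read 2318 intensity units on the array labelled Nr4a-deficient against 60.7, below background, on the wild-type array. The bound was at least 36.5-fold higher. Csf2rb, the common beta chain for interleukin-3, interleukin-5 and GM-CSF, read 4059 against 1137 (4.15-fold higher). Its mouse paralog Csf2rb2, specific for interleukin-3, read 8891 against 770 (13.4-fold higher), though near-identical sequence makes the split between these genes uncertain. Of the dendritic cell markers given above, 4 of 7 detected conventional and 6 of 8 plasmacytoid ones were also at least 2-fold higher. The others did not pass 2-fold, and the part of these cells in the values of the chains was not tested.

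The signal transducers lay closer to 0. Myd88, Irak1, Irak2 and Irak4 lay between 0.022 and 0.12, Irak3, an inhibitor of that pathway, at -0.28, and Traf6 at -0.13. Jak1 lay at 0.21, Jak2 at 0.30, Tyk2 at 0.16, Stat3 at 0.21 and Stat4 at 0.38. Ebi3, a chain of interleukin-27 and interleukin-35, lay at -0.72 (7411 against 14202 intensity units). Ifngr1 lay at 0.079 and Ifngr2 at -0.32, and Osmr was at background.

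Promoter sequence was available from RefSeq (GRCm38.p6) for 58 of the 72 genes, in 71 windows of the 250 bases before a start. The Nr4a monomer element, AAAGGTCA on either strand, was in none of these windows and in 1.34% of all 32851 windows, which says only that these letters are not in this stretch. The AP-1 motif TGANTCA was in 14 member windows (19.7%, against 6.75% of all), the NF-kappaB motif (GGGNN directly followed by TTTCC) in 5 (7.04% against 1.41%) and the GATA motif AGATAA in 13 (18.3% against 9.99%), each read on both strands. The windows of Il1rl1, higher at all probes and with 2 starts, and of Il6 are printed with these motifs in capitals. Both Il1rl1 windows hold a GATA match (on the reverse strand in the second), and the Il6 window holds an AP-1 match and an NF-kappaB match. A match is a description of the letters and not a bound site.

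Il1rl1 first start, chr1:40429320-40429569, plus strand: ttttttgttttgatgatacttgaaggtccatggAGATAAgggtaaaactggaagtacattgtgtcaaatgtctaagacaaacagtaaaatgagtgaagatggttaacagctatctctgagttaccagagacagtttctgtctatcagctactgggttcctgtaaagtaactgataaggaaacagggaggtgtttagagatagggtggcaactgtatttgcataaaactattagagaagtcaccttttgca
Il1rl1 second start, chr1:40439379-40439628, plus strand: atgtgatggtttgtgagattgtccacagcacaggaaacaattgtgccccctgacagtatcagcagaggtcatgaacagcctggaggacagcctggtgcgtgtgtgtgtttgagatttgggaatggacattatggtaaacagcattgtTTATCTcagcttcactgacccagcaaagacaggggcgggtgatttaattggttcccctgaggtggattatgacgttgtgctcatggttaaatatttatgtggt
Il6, chr5:30012864-30013113, plus strand: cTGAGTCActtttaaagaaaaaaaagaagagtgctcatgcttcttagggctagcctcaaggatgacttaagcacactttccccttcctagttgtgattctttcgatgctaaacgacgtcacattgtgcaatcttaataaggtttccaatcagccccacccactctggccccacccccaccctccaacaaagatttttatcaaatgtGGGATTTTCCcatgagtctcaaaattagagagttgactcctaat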

How the data were processed

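Total RNA of sorted Treg cells was labelled with Cy3 and hybridised to 1 array per genotype. Per the file headers, the intensity values came from Agilent Feature Extraction 10.7.3.1, with removal of spatial and multiplicative trends within each array and no separate background correction. The value table that the authors deposited holds intensity values that lay within 1% of the scanner values for 99.7% of probes and served as an alternative.

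Control spots and spots with outlier flags (173 and 209) were left out, spots of a probe were averaged on the log2 scale, and each array's 75th percentile (1762 and 2047 intensity units) was subtracted. A probe was well above background where over 50% of its spots had that call, which held for 58.7% and 55.6% of 39348 probes. Of the 72 members, 52 had a single probe. Names are those of the array design, updated through RefSeq for 2 members. Gene values were computed with pandas 2.3.3 and tested on simulated data, and normexp came from limma 3.58.1 (offset 50). By rule, every member above background on at least 1 array was named, with both signals where it or its ligand or receptor passed 2-fold, and so were partner chains past 2-fold. Ebi3 and transducers within 2-fold were named after their values were seen, and 1 result is not reported here. The members and lists were chosen with earlier results of these data known. Alternatives covered the scale, the background correction, the filter on dim probes, the bound, the choice of probe and the source of the values.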

Additional observations from a re-analysis of the deposited data

How the results depend on the processing

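Of the 11 members past 2-fold, 7 stayed past it in the same direction under every alternative that gave them a value, and none changed sign. The others were Il4i1 and Il6 on the spike-in scale (0.77 and 0.97), Il24 with normexp (-0.62), and Il18r1 with quantile normalization (-0.98) and with the percentile taken over probes above background on both arrays (-0.97). Of the 7, Il1b, Il18 and Il17rb were measured on both arrays. Il17c, Il17re, Il1f8 and Il1rapl1 rested on bounds. A bound is cut off at 0, so a change of scale could not reverse it. These bounds had no value with both arrays required above background. A further 6 members passed 2-fold under at least 1 alternative, among them Il1rl1 as the mean of its probes (1.10) and Il18bp on the spike-in scale (-1.25). With both arrays required above background, 2 members were higher. Without a filter on dim probes, 11 were higher and 9 lower, since signals at background then entered. The spike-in scale moved the median measured difference of all 18556 genes above background on at least 1 array from -0.014 to -0.39. With bounds included, it moved the median of the 17 cytokine genes from 0.17 to -0.21 and that of the 25 receptor genes from 0.18 to -0.15, and the members past 2-fold from 7 higher and 4 lower to 5 higher and 6 lower. The other counts stayed within 1.5 times of the reported ones. No paired analysis was possible because each group holds 1 library, and no library could be left out. No signal below 73.8 on the wild-type array was called above background. Some brighter ones, such as Il17rd at 91.8, carried no call either. A bound against 73.8 is therefore not a strict limit.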

Other observations

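Several members lay close to the edge of detection in ways that a background call hides. The single probe of Il17rd, a membrane protein that dampens growth factor signals, read 91.8 intensity units on the wild-type array and 19.9 on the one labelled Nr4a-deficient, yet carried no call above background on either, although the lowest called signal of the wild-type array was 73.8. One probe of Il20 read 71.2 and 33.6, and Il1f6, which encodes interleukin-36 alpha, read 53.6 and 10.67, also without a call. The dim second probe of Il12rb2 read 44.4 on the array labelled Nr4a-deficient and 16.4 in wild-type, where the brighter probe lay at 0.18. For 6 members more than 1 probe could be compared, and in 5 of them the probes lay on the same side of 0, and the widest spread between probes of a gene was 0.22 on the log2 scale.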
